A study of Mus musculus with 6 samples.

Results

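Elastic fibre genes were examined in bulk RNA sequencing of injured mouse femoral arteries. The set holds 10 genes, chosen by symbol from the 18476 genes of the deposited table: the elastin gene Eln, the microfibril genes Fbn1 and Mfap4, the fibulins Fbln1, Fbln2, Fbln5 and Efemp2, and the lysyl oxidases Lox, Loxl1 and Loxl2. All 10 were found, and all 10 passed the filter on low counts that left 14557 genes for testing. The treated arteries had received vasostatin-2 around the vessel (3 libraries), and the comparison arteries had received saline in the same place (3 libraries). Vasostatin-2 is cut from chromogranin A, a protein of secretory granules. All mice were wild-type C57BL/6, all arteries had been injured with a wire, and all were taken at day 3 after injury. Uninjured arteries were not analysed here, so every value below belongs to an injured vessel. The age of the mice and any pooling of arteries are not given in the sources used here.

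Elastic fibres are the recoil element of the arterial wall. Tropoelastin, the soluble product of Eln, is laid onto a scaffold of fibrillin microfibrils and joined into an insoluble polymer when lysyl oxidases oxidise its lysines. Fibulins act in between: fibulin-4, the product of Efemp2, brings lysyl oxidase to tropoelastin, and fibulin-5 tethers elastin to microfibrils and to cell-surface integrins. In arteries smooth muscle cells make most of the elastic lamellae, while adventitial fibroblasts also make fibrillin, fibulins and lysyl oxidases. Breaks in the lamellae and renewed matrix production are known features of injured vessels. In bulk tissue, fewer cells of a type and less RNA per cell cannot be told apart.

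Depth was nearly equal across libraries, with total estimated counts between 19333730 and 20105995. The 10 genes were far from the detection limit, at between 1727 and 56074 estimated counts in each library, where 3 counts correspond to at most 0.155 CPM, the count scaled to library size. The labels name vascular smooth muscle cells, while the protocols describe RNA of the whole artery. None of the smooth muscle, fibroblast, endothelial, macrophage or adipocyte markers checked was at 0 in any library. Summed contractile smooth muscle markers were at 1054 to 2313 TPM with vasostatin-2 and at 942 to 1972 TPM with saline. TPM are scaled to transcript length as well as to the library and can be compared between genes. The 12 fibroblast markers summed to between 12217 and 14229 TPM with vasostatin-2 and between 9403 and 15803 TPM with saline, and the 9 macrophage markers to between 14455 and 15187 TPM against between 11459 and 16103 TPM. The 9 endothelial markers summed to between 1064 and 1190 TPM with vasostatin-2 and between 1009 and 1226 TPM with saline. The edgeR test called 0 genes of these lists. An unadjusted edgeR p under 0.05 was found for 0 contractile markers and for 3 endothelial markers, 2 higher with vasostatin-2 and 1 lower. It was also found for 3 fibroblast, 5 macrophage and 2 adipocyte markers, all higher with vasostatin-2. Of all genes tested, 3.29% were higher and 3.85% lower at that p. The log2 fold change, vasostatin-2 over saline, was above 0 for 12 of 12 contractile markers (median 0.36), 9 of 12 fibroblast markers (median 0.31) and 8 of 9 macrophage markers (median 0.27). It was above 0 for 5 of 9 endothelial and 7 of 9 adipocyte markers, and for 49.8% of all genes tested. Averaged over the fibroblast markers, log2 CPM minus the mean of the 6 libraries was 0.12, 0.19 and 0.15 with vasostatin-2. With saline it was −0.17, −0.39 and 0.11. By this mean every vasostatin-2 library was higher, but vasostatin-2 replicate 1 and saline replicate 3 nearly met. By the median over the markers they changed order, at 0.118 and 0.123. Of these lists DESeq2 called 1 gene, Pdgfra, a growth factor receptor of fibroblasts named after its values were seen, at 86.0 ± 9.32 TPM with vasostatin-2 and 59.1 ± 9.77 TPM with saline (SD, n = 3 each). Its log2 fold change was 0.56, with an adjusted p of 0.0143 by DESeq2 and 0.458 by edgeR. DESeq2 called 0.776% of all genes tested. The part of these cell types in the elastic fibre values was not tested. Some libraries stood apart. Saline replicate 1 carried the least adipocyte RNA, with 8044 TPM over 9 genes against 12397 to 16999 TPM elsewhere. Saline replicate 2 carried the most red cell RNA, with 43391 TPM over 7 genes against 7013 to 9494 TPM in the other saline libraries. The vasostatin-2 libraries held 8706, 1406 and 1149 TPM of it. The log2 fold change was below 0 for 7 of 7 red cell markers (median −2.43) and 7 of 7 tested neutrophil markers (median −1.01). Of these, 1 red cell and 2 neutrophil markers had an unadjusted edgeR p under 0.05, and edgeR called 0. It was above 0 for 12 of 12 skeletal muscle and 1 of 9 Schwann cell and nerve markers. Saline replicate 3 carried the most Schwann cell and nerve RNA, with 947 TPM over 9 genes against 179 to 283 TPM elsewhere. Vasostatin-2 replicate 3 carried the most skeletal muscle RNA, with 1348 TPM over 12 genes against 85.0 to 145 TPM elsewhere. The replicates are described as biological, but no label ties a number to a shared animal or day.

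None of the 10 elastic fibre genes differed between vasostatin-2 and saline arteries beyond the spread of the libraries. The quasi-likelihood test of edgeR, adjusted by Benjamini-Hochberg over all 14557 genes, called 0 of the 10, and 0% of all genes. The members' adjusted p ran from 0.760 for Fbln5 to 0.999 for Fbn1. Before adjustment, 0 members had an edgeR p under 0.05, where 7.14% of all genes tested did. DESeq2 also called 0 members, with 0.776% of all genes called. The authors' deposited table gave each of the 10 a q-value of 1.00, where 0.533% of the 18401 genes with a q-value were under 0.05. The log2 fold changes, vasostatin-2 over saline, lay between −0.19 for Loxl2 and 0.28 for Fbln5. Their median was 0.10 over the 10 genes, where that of all genes tested was −0.00068. In 7 of the 10 the fold change was above 0, where 49.8% of all genes tested were. That count of 7 was 2 of 10 without saline replicate 2, and the median was then −0.072. Genes outside the set leaned the same way without that library. In TPM, 21.5% of all genes tested then had every vasostatin-2 library below both saline libraries, and 10.2% had every one above.

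The summed level of the set overlapped between the groups as well. The 10 genes together made up 0.374%, 0.395% and 0.399% of all TPM in the vasostatin-2 libraries, against 0.417%, 0.246% and 0.441% in the saline libraries. In summed TPM this was 3890 ± 132 with vasostatin-2 and 3679 ± 1063 with saline (SD, n = 3 each). Saline replicate 2 lay far below the other 5 libraries, and the vasostatin-2 libraries lay between it and the other saline libraries. Eln was the most abundant member, with a mean of 1052 TPM over the 6 libraries and rank 140 of the genes tested. Lox followed at 578 TPM, Fbln2 at 503 TPM, Mfap4 at 441 TPM, Fbn1 at 303 TPM and Loxl1 at 286 TPM. Efemp2 at 220 TPM, Loxl2 at 203 TPM, Fbln5 at 118 TPM and Fbln1 at 81.1 TPM closed the order. Within the vasostatin-2 group the ranges of neighbours in that order overlapped only for Fbn1 with Loxl1 and for Efemp2 with Loxl2. Within the saline group the ranges of every pair of neighbours overlapped. Compared within single libraries, the higher neighbour was above the lower in all 6 libraries for most pairs. The exceptions were Fbn1 over Loxl1, in 5 libraries, and Efemp2 over Loxl2, in 3.

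**Figure D1:**
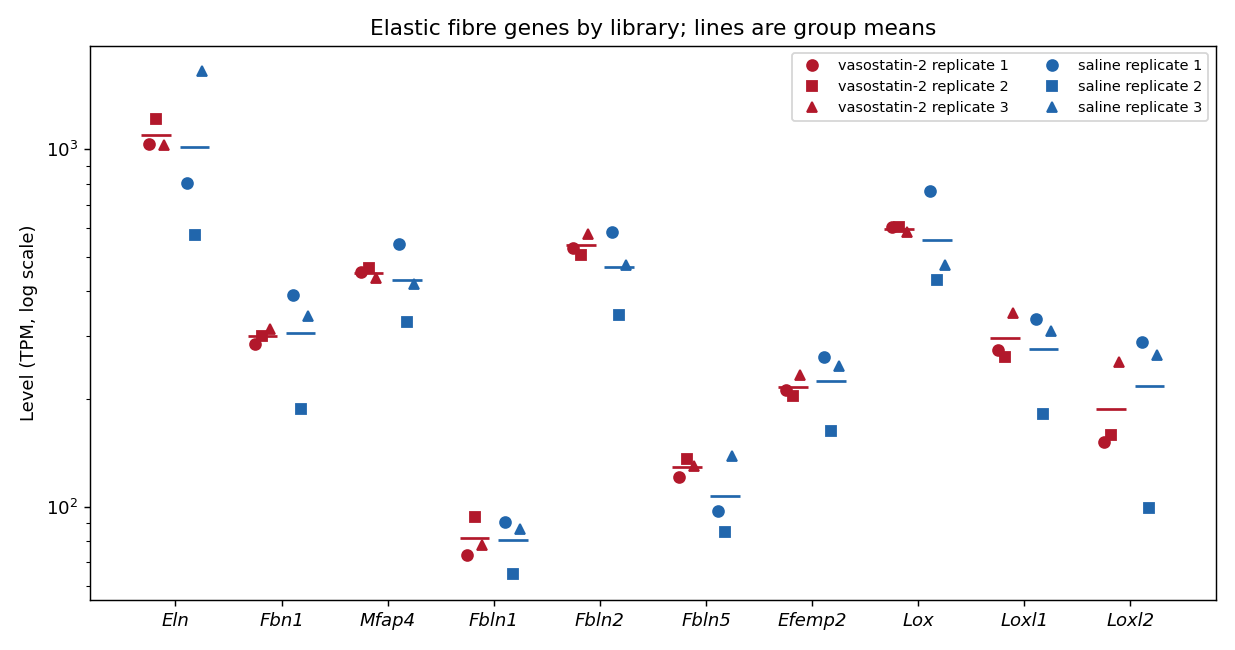
Level of each elastic fibre gene in TPM on a log axis, with vasostatin-2 libraries in red, saline libraries in blue, a marker shape for each replicate number and lines for group means. The 3 vasostatin-2 libraries sit close together for most genes, and saline replicate 2 is the lowest library for all 10.

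Elastin itself was widely spread among saline libraries. Eln lies on chromosome 5 of GRCm38 from 134702593 to 134747323, on the minus strand, in the GENCODE annotation. It was at 1035, 1217 and 1025 TPM in the vasostatin-2 libraries, against 806, 576 and 1654 TPM in saline replicates 1, 2 and 3. The vasostatin-2 libraries all fell between the saline extremes, which were 2.87-fold apart, while the vasostatin-2 libraries were within 1.19-fold. Eln averaged 1092 ± 108 TPM with vasostatin-2 and 1012 ± 568 TPM with saline (SD, n = 3 each). The log2 fold change was 0.13 with a standard error of 0.35, and its 95% interval ran from −0.70 to 0.97 (edgeR adjusted p = 0.953). The value turned on single libraries: without saline replicate 3 the log2 fold change was 0.66, with an unadjusted edgeR p of 0.0076 and an adjusted p of 0.493. Without saline replicate 2 it was −0.12. Saline replicate 3 was also the library richest in Schwann cell and nerve RNA. The contractile smooth muscle markers summed to 1520, 942 and 1972 TPM in saline replicates 1, 2 and 3, the same order as Eln. With vasostatin-2 they summed to 1054, 2311 and 2313 TPM, which was not the order of Eln. The part of either marker list in the Eln values was not tested. An antisense gene lies across Eln in GENCODE, as do other genes across Fbn1, Lox and Loxl2, and their levels were not analysed here.

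The microfibril genes overlapped between the groups. Fbn1, fibrillin-1, is the main microfibril scaffold (chromosome 2, 125300594 to 125507993, minus strand). It was at 285, 300.2 and 314 TPM with vasostatin-2, against 390.2, 187 and 341 TPM with saline. The vasostatin-2 libraries lay inside the saline range, and the log2 fold change was −0.0080 with a standard error of 0.23 and a 95% interval from −0.56 to 0.54. Without saline replicate 2 the Fbn1 value was −0.24, and without saline replicate 1 it was 0.19. Mfap4, a microfibril-associated glycoprotein that binds elastin (chromosome 11, 61485431 to 61488900, plus strand), was at 454, 464 and 437 TPM with vasostatin-2, against 543, 329 and 419 TPM with saline. The vasostatin-2 libraries again lay inside the saline range. Its log2 fold change was 0.082 with a standard error of 0.15 and a 95% interval from −0.27 to 0.44, so a 2-fold difference lies outside the interval. Mfap4 overlaps Mapk7 on the opposite strand, which was at 34.0 to 40.4 TPM. As strand use in counting is not stated, reads of the overlap cannot be assigned.

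Among the fibulins, Fbln5 had the smallest p of the set. Fbln5, fibulin-5, lies on chromosome 12 from 101746565 to 101819055 on the minus strand. It was at 121, 136 and 130 TPM with vasostatin-2, against 97.4, 84.9 and 139 TPM with saline. Every vasostatin-2 library was above saline replicates 1 and 2 and below saline replicate 3, so the groups overlapped. Its log2 fold change was 0.28 with a standard error of 0.16 and a 95% interval from −0.10 to 0.66 (edgeR adjusted p = 0.760). Without saline replicate 3 it was 0.49, with an unadjusted edgeR p of 0.0013 and an adjusted p of 0.381. Without saline replicate 2 the Fbln5 value was 0.17. Fbln5 thus had the same library order as Eln among the saline libraries.

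Fbln2, fibulin-2, was the most abundant fibulin (chromosome 6, 91212455 to 91272540, plus strand). It was at 530.0, 507 and 578 TPM with vasostatin-2, against 585, 344 and 475 TPM with saline. The vasostatin-2 libraries were above saline replicates 2 and 3 and below saline replicate 1. The Fbln2 log2 fold change was 0.22 with a standard error of 0.17 and a 95% interval from −0.18 to 0.62 (edgeR adjusted p = 0.825). It was 0.39 without saline replicate 1 and 0.070 without saline replicate 2. Efemp2, fibulin-4 (chromosome 19, 5473954 to 5482517, plus strand), was at 212, 204 and 233 TPM with vasostatin-2, against 263, 162 and 247 TPM with saline. All vasostatin-2 libraries lay inside the saline range. The log2 fold change of Efemp2 was −0.035 with a standard error of 0.15 and a 95% interval from −0.40 to 0.33. Efemp2 overlaps Mus81 on the opposite strand, which was at 13.97 to 15.17 TPM. Fbln1, fibulin-1 (chromosome 15, 85205949 to 85286535, plus strand), was the lowest member, at 73.3, 93.5 and 77.9 TPM with vasostatin-2 against 90.7, 64.6 and 86.4 TPM with saline. The groups interleaved. Its log2 fold change of 0.038 had the smallest standard error of the set, 0.13, with a 95% interval from −0.27 to 0.34.

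Of the cross-linking enzymes, Lox was nearly constant with vasostatin-2. Lox, lysyl oxidase, lies on chromosome 18 from 52516067 to 52529867 on the minus strand. It was at 604.2, 604.0 and 586 TPM in the vasostatin-2 libraries, against 766, 431 and 476 TPM in the saline libraries. The vasostatin-2 libraries lay within 1.03-fold of each other, inside a saline range of 1.78-fold. Lox averaged 598 ± 10.2 TPM with vasostatin-2 and 558 ± 182 TPM with saline (SD, n = 3 each). The log2 fold change was 0.12 with a standard error of 0.20 and a 95% interval from −0.36 to 0.60 (edgeR adjusted p = 0.928). Without saline replicate 1 the Lox value was 0.39, with an unadjusted edgeR p of 0.0097 and an adjusted p of 0.546, and without saline replicate 2 it was −0.0077.

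Loxl1, lysyl oxidase-like 1, is known in mice for keeping elastic fibres renewed in adult tissue (chromosome 9, 58287738 to 58313186, minus strand). It was at 275, 263 and 349 TPM with vasostatin-2, against 335, 182 and 310.1 TPM with saline. Vasostatin-2 replicate 3 was the highest of all 6 libraries and saline replicate 2 the lowest. The Loxl1 log2 fold change was 0.12 with a standard error of 0.22 and a 95% interval from −0.39 to 0.63. Loxl2, lysyl oxidase-like 2, best known for cross-linking collagen IV (chromosome 14, 69609068 to 69695834, plus strand), was the member with the widest spread within the vasostatin-2 group. It was at 151, 158 and 254 TPM with vasostatin-2, against 289, 98.8 and 266 TPM with saline. The libraries fell into a higher trio, made of vasostatin-2 replicate 3 and saline replicates 1 and 3, and a lower trio that also crossed the groups. The log2 fold change of Loxl2 was −0.19 with a standard error of 0.39 and a 95% interval from −1.11 to 0.74. It was −0.52 without saline replicate 2 and 0.057 without saline replicate 1.

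**Figure D2:**
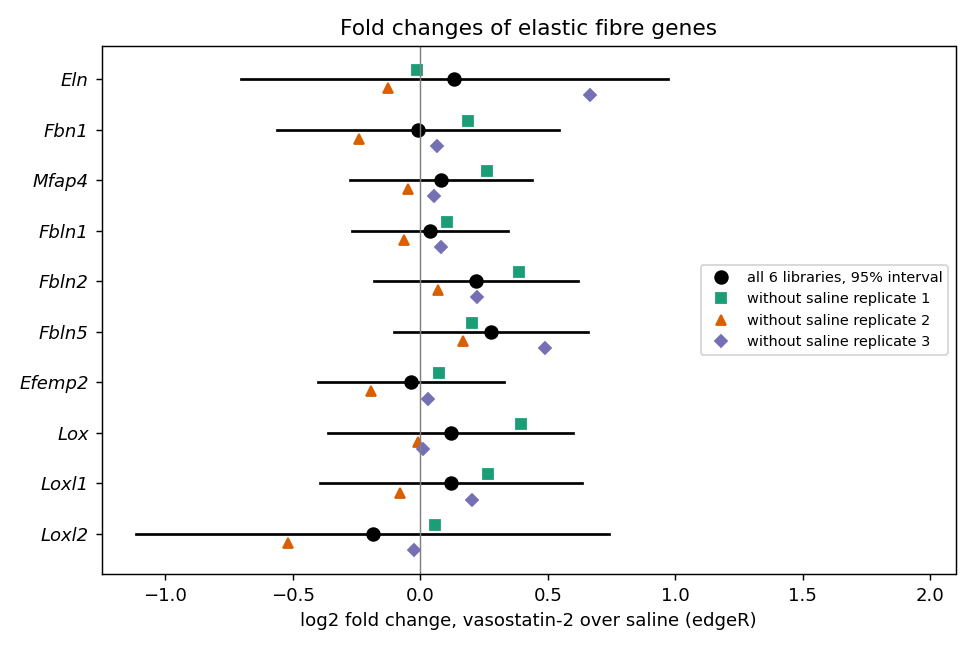
Log2 fold change of vasostatin-2 over saline from edgeR for each gene, with its 95% interval in black and the value with each saline library left out as a coloured marker. Every interval includes 0, and leaving out saline replicate 2 puts 8 of the 10 genes below 0. Without that library, 21.5% of all genes tested had every vasostatin-2 TPM below both saline libraries, against 10.2% with every one above.

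The makeup of the enzyme and fibulin families was set side by side as shares of TPM. Lox made up 53.9%, 54.5% and 44.9% of the summed TPM of the 5 lysyl oxidase genes with vasostatin-2, against 50.5%, 54.6% and 41.8% with saline. Loxl1 made up 23.7% to 26.7% with vasostatin-2 and 22.1% to 27.3% with saline. Loxl2 had 13.5%, 14.3% and 19.5% with vasostatin-2 against 19.05%, 12.5% and 23.4% with saline, so its highest and lowest shares were both in saline libraries. Loxl4 was below 1% in every library. Among 6 fibulin genes Fbln2 made up 47.9% to 50.4% with vasostatin-2 and 43.1% to 50.9% with saline. Efemp2 made up 19.3%, 19.2% and 20.3% with vasostatin-2, against 22.8%, 21.6% and 22.4% with saline. This share of Efemp2 was the one whose groups did not overlap among the members of both families, and it was picked out after its values were seen and not tested. It was 1 share among those of 5 lysyl oxidase and 6 fibulin genes. In TPM, the groups did not overlap for 11.9% of all genes tested. The ratio of Eln to Fbn1 TPM was 3.63, 4.05 and 3.26 with vasostatin-2, against 2.06, 3.08 and 4.85 with saline. The saline libraries thus spanned both sides of the vasostatin-2 values.

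**Figure D3:**
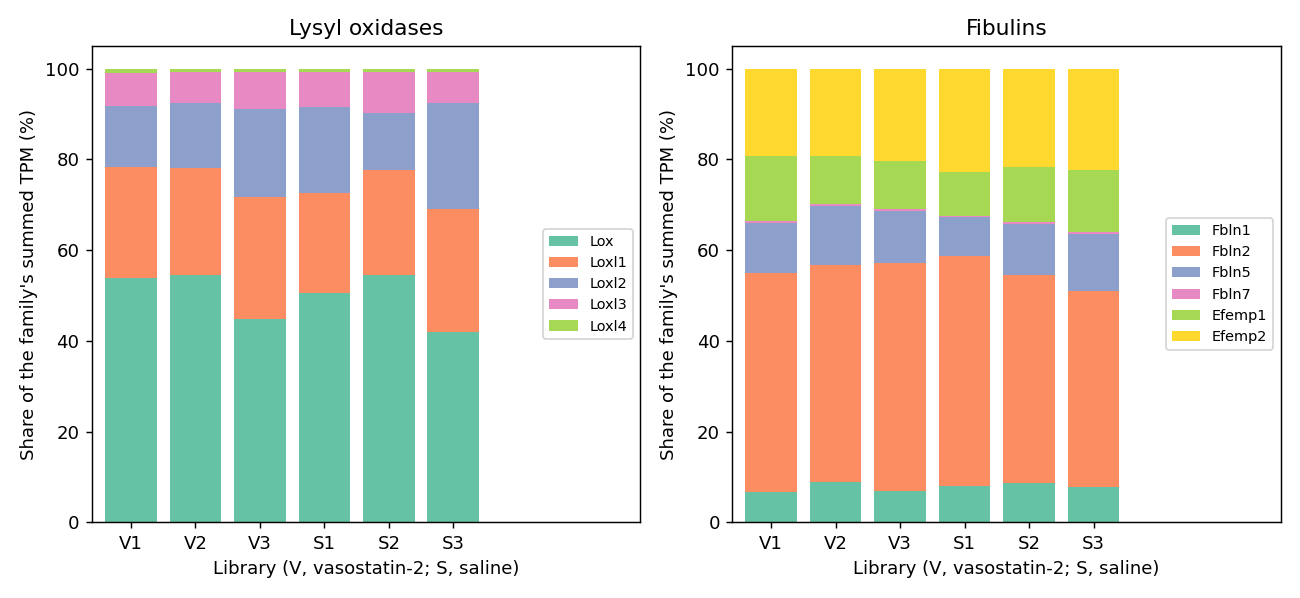
Share of the summed TPM held by each lysyl oxidase gene (left) and each fibulin gene (right) in the vasostatin-2 libraries V1 to V3 and the saline libraries S1 to S3. Lox and Fbln2 hold the largest shares in every library, and the Loxl2 share is higher in V3, S1 and S3 than in V1, V2 and S2.

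Saline replicate 2 stood below the other libraries throughout the set. In TPM, all 10 members were lowest in saline replicate 2, where 36.4% of all genes tested had their lowest value. In 6 of the 10 saline replicate 1, the library lowest in adipocyte RNA, was the highest library, where 28.5% of all genes tested had their highest value in it. The vasostatin-2 range lay wholly inside the saline range for 8 of the 10, where 33.2% of all genes tested showed this. Fbln1 and Loxl1 were the exceptions, each with 1 vasostatin-2 library above all saline libraries. No member had groups that did not overlap, where 11.9% of all genes tested did. The coefficient of variation, the SD as a percent of the mean, was larger with saline for all 10, where 68.2% of all genes tested showed this order. Its median over the members was 6.89% with vasostatin-2 and 28.1% with saline, where all genes tested had medians of 7.88% with vasostatin-2 and 12.02% with saline. Leaving out saline replicate 2 here was chosen after seeing the data. Without it the vasostatin-2 range lay inside the range of the other saline libraries for 5 of the 10, where 9.73% of all genes tested showed this. Fbn1, Efemp2 and Loxl2 then had every vasostatin-2 library below both saline libraries, as had 21.5% of all genes tested. The coefficient of variation was then larger with saline for 6 of the 10, where 49.3% of all genes tested showed this, and its median over the members was 6.89% with vasostatin-2 and 12.1% with saline. The difference in spread was not tested. Saline replicate 2, with its high red cell RNA, also had the lowest summed levels of the contractile smooth muscle and fibroblast markers, at 942 and 9403 TPM. Vasostatin-2 replicate 1 was nearly as low in contractile markers, at 1054 TPM. Averaged as log2 CPM minus the mean, they were at −0.59 in vasostatin-2 replicate 1 and −0.56 in saline replicate 2. The elastic fibre genes summed to 3739 TPM in vasostatin-2 replicate 1 and 2460 TPM in saline replicate 2. The part of these markers in the low elastic fibre values was not tested.

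**Figure D4:**
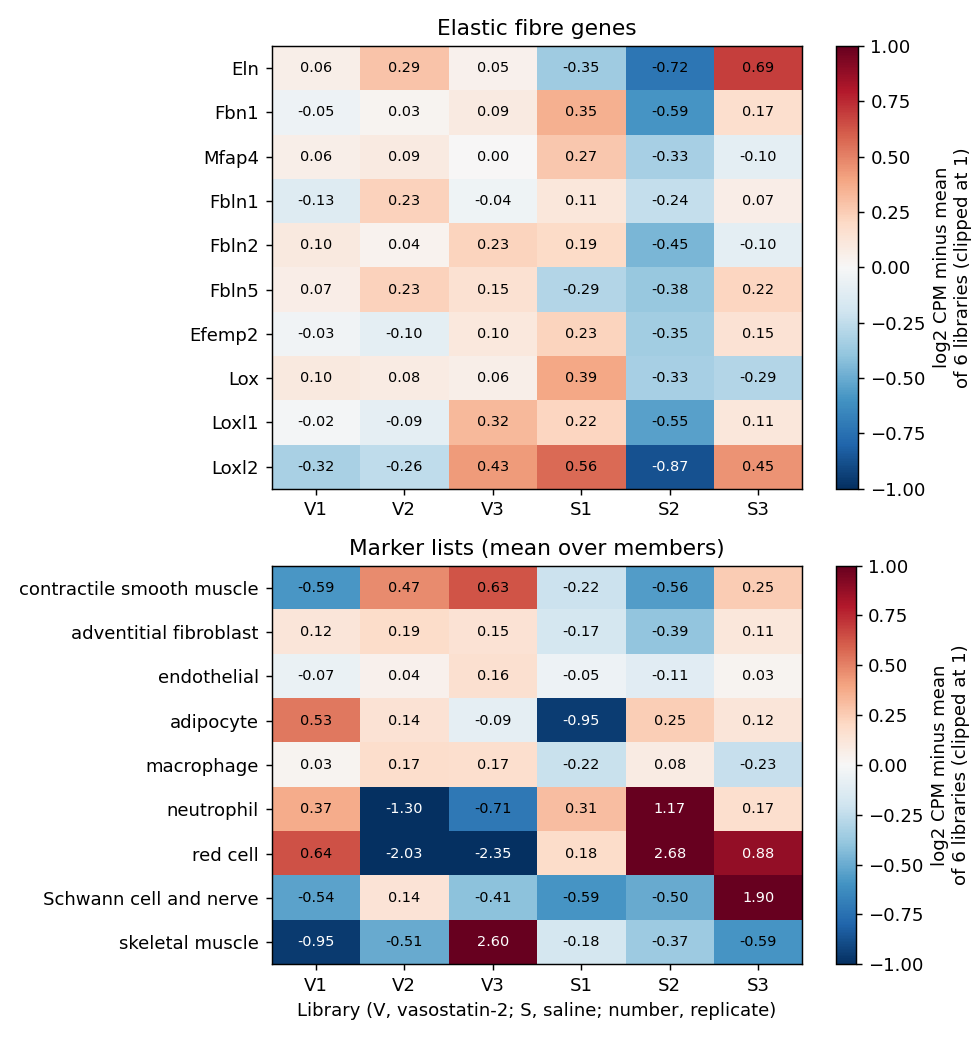
Log2 CPM minus the mean of the 6 libraries for each elastic fibre gene (top) and the mean of the same over each marker list (bottom), in vasostatin-2 libraries V1 to V3 and saline libraries S1 to S3. Saline replicate 2 (S2) is below 0 for all 10 genes, between −0.24 for Fbln1 and −0.87 for Loxl2, and has the highest red cell and neutrophil values, while S1 has the lowest adipocyte value.

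Members were compared by their pattern over the 6 libraries, measured as the root mean square distance between centred log2 CPM values, on which a smaller value means more alike. The closest pair was Lox and Mfap4, at 0.097. Fbln2 was closest to Mfap4, at 0.11. Fbn1, Efemp2 and Loxl1 lay within 0.12 of each other, and Efemp2 lay at 0.14 from both Fbln2 and Mfap4. Eln was closest to Fbln5, but at 0.25. For scale, the distance of a member from its own mean ran from 0.16 for Fbln1 to 0.52 for Loxl2. Over the 10454 other genes that averaged 10 CPM or more, Eln had its nearest neighbours outside the set: Gatm, an enzyme of creatine synthesis, at 0.038, Tnxb, the matrix glycoprotein tenascin-X, at 0.087, and Gpc3, the cell-surface proteoglycan glypican-3, at 0.13. The transcription factor Etv1 at 0.14 and the corepressor Hr at 0.17 followed. Tnxb was at 41.0, 48.0 and 46.8 TPM with vasostatin-2, against 32.2, 25.6 and 65.8 TPM with saline, the same order of saline libraries as Eln. With 6 libraries these distances describe the samples and carry no test.

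Promoter sequences from RefSeq on GRCm38.p6, from 250 bases before to 50 bases after the start site, were at hand for 5 of the 10 members: Fbn1, Fbln1, Fbln2, Fbln5 and Efemp2. The first listed start of 4 of them is shown, because Fbn1, Fbln2 and Efemp2 lay within 0.16 of each other in pattern while Fbln5 was the member most like Eln. Capitals mark matches on either strand to GGGCGG, the core of the Sp1-type GC box, and to CAGAC, the core of the Smad-binding element. The regions are chr2:125506389-125506688 (minus strand), chr6:91212514-91212813 (plus strand), chr12:101819070-101819369 (minus strand) and chr19:5473696-5473995 (plus strand).
Fbn1: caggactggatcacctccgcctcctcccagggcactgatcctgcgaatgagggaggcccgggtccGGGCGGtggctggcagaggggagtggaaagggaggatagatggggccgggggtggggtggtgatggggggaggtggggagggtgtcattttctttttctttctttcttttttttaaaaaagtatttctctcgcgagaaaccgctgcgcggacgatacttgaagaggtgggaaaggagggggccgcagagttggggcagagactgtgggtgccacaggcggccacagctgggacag
Fbln2: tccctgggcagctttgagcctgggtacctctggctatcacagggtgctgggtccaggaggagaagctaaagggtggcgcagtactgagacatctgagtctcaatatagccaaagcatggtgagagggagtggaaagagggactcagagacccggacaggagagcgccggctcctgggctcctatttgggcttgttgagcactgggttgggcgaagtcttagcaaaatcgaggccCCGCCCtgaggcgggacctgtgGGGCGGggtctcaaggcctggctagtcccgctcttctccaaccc
Fbln5: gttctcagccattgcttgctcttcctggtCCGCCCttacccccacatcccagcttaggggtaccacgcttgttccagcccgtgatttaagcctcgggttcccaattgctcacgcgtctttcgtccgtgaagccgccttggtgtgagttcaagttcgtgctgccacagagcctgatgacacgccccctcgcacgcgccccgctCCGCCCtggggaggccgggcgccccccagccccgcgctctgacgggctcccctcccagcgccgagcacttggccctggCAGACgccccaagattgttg
Efemp2: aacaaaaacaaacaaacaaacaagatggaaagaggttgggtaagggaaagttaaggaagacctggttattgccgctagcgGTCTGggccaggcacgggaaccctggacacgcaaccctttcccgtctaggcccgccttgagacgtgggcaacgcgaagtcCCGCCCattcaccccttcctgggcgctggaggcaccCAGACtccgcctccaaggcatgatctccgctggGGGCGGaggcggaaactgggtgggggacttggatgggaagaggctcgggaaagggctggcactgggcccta
GGGCGG was found once in the Fbn1 window and in 2 places in each of the Fbln2, Fbln5 and Efemp2 windows, and in 35.7% of all 32851 promoters of that length. CAGAC was found in the Fbln5 and Efemp2 windows and in 49.6% of all promoters. TATAAA (13.6% of all promoters), TGANTCA (7.81%) and the CArG box, the serum response factor motif (1.63%), had no match in these windows. These are letter matches in short windows and say nothing about binding.

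Genes that work with the elastic fibre were followed in 5 further lists. Of 22 tested genes (23 listed) for other microfibril and elastic fibre proteins, edgeR called 0. A log2 fold change above 0 was found for 14, where 49.8% of all genes tested were, and the median was 0.069. The most abundant, Mfap5, a microfibril-associated glycoprotein, was at 377 ± 22.4 TPM with vasostatin-2 and 449 ± 101 TPM with saline (SD, n = 3 each). Mfap2, another microfibril glycoprotein, was at 135 ± 2.70 against 124 ± 20.9 TPM, and Ltbp3, a latent TGF-beta-binding protein, at 127 ± 13.6 against 123 ± 12.1 TPM. DESeq2 called 1 gene of this list, Mmrn1, an endothelial and platelet glycoprotein of the EMILIN family, at 58.8 ± 9.82 TPM with vasostatin-2 and 34.4 ± 9.57 TPM with saline. Its log2 fold change was 0.79, with an adjusted p of 0.0234 by DESeq2 and 0.548 by edgeR, where DESeq2 called 0.776% of all genes tested. At an unadjusted p of 0.05 edgeR gave 4 genes, all higher with vasostatin-2, where 3.29% of all genes tested were: Mmrn1, Adamtsl4, Ltbp4 and Fbln7, named after their values were seen. Ltbp4, which acts with fibulin-5 in elastic fibre assembly, was at 121 ± 7.61 against 95.1 ± 22.0 TPM (log2 fold change 0.37), and Adamtsl4, a fibrillin-binding protein, at 34.3 ± 1.14 against 27.7 ± 2.90 TPM (log2 fold change 0.33).

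Copper supply and the maturation of lysyl oxidases were covered by 8 tested genes (9 listed), of which edgeR called 0, with a median log2 fold change of −0.085. Periostin, encoded by Postn, which supports the activation of pro-lysyl oxidase, was at 2537 ± 444 TPM with vasostatin-2 and 2703 ± 1067 TPM with saline. Fibronectin, encoded by Fn1, was at 919 ± 128 against 906 ± 265 TPM. Pcolce, the procollagen C-proteinase enhancer, was at 622 ± 17.3 against 648 ± 144 TPM. For all 3 the SD was larger with saline. The copper importer Slc31a1, named after its value was seen, was the 1 gene of the list with an unadjusted edgeR p under 0.05, at 42.8 ± 2.42 against 50.7 ± 2.48 TPM (log2 fold change −0.24, adjusted p = 0.662); 3.85% of all genes tested were lower at that p.

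Of 16 tested elastin-degrading proteases and inhibitors (19 listed) edgeR called 0. The median log2 fold change was −0.11, with 11 below 0, where 7304 of the 14557 genes tested were. The elastolytic cathepsin S gene Ctss was at 2153 ± 219.9 TPM with vasostatin-2 and 1865 ± 870.1 TPM with saline, cathepsin B (Ctsb) at 6664 ± 705 against 6007 ± 1621 TPM, and the cathepsin inhibitor cystatin C (Cst3) at 1593 ± 142 against 1407 ± 79.5 TPM. DESeq2 called 1 gene, Slpi, an inhibitor of neutrophil elastase, at 11.4 ± 4.50 against 28.3 ± 5.70 TPM (log2 fold change −1.31, adjusted p = 0.0147 by DESeq2 and 0.528 by edgeR). The share of all genes tested that DESeq2 called was 0.776%. The 9 neutrophil markers summed to between 201 and 587 TPM with vasostatin-2 and between 528 and 899 TPM with saline, and their part in the Slpi value was not tested. At an unadjusted p of 0.05 edgeR gave 2 genes, Slpi and Mmp14, both lower with vasostatin-2, where 3.85% of all genes tested were. Mmp14, a membrane-bound metalloproteinase, was at 279 ± 40.6 against 399 ± 102 TPM (log2 fold change −0.50, edgeR adjusted p = 0.681). Mmp14 was named after its value was seen.

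Receptors and TGF-beta genes closed the survey. Of 11 tested receptors for elastin and its partners (12 listed) edgeR called 0, with a median log2 fold change of 0.019. Galectin-3 (Lgals3) was at 880 ± 161 TPM with vasostatin-2 and 792 ± 409 TPM with saline, protective protein (Ctsa) of the elastin receptor complex at 585 ± 44.3 against 545 ± 92.7 TPM, and integrin beta-1 (Itgb1) at 388 ± 32.5 against 386 ± 62.0 TPM. Of 10 TGF-beta ligands, receptors and Smads, a pathway known to raise elastin and lysyl oxidase expression, edgeR called 0, with a median of −0.0031. Tgfb1 was at 224 ± 20.4 against 221 ± 10.3 TPM, Tgfbr2 at 177 ± 21.3 against 185 ± 40.1 TPM, and Tgfb3 at 84.2 ± 13.7 against 108 ± 45.6 TPM.

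**Figure D5:**
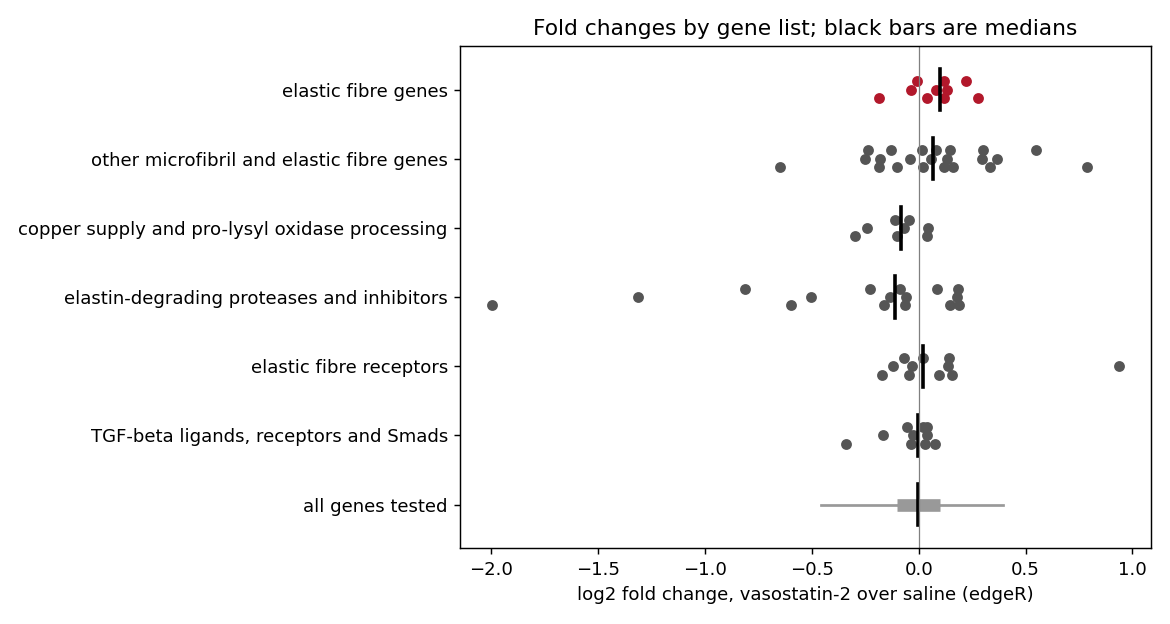
Log2 fold change of vasostatin-2 over saline for each tested gene of the elastic fibre set (red) and of 5 related lists (grey), with medians as black bars. For all genes tested the thick bar spans the 25th to 75th percentile and the thin line runs from −0.46 to 0.40, the 5th to 95th percentile, and the 10 elastic fibre genes lie within that line.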

How the data were processed

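Libraries of 6 arteries, 3 with vasostatin-2 and 3 with saline, were compared. Per the submitters' processing notes, HISAT2 2.1.0, DESeq2 1.26.0 and the build GRCm38.p6 were used. The tool that made the counts and its use of strand are not given in the sources used here. The deposited estimated counts need not be whole, and 65.6% of them are. The authors also deposited TPM values, used here for levels, and FPKM values, which were not used. The same deposited table holds the authors' comparison, with p-values, q-values and a log2 fold change whose sign was positive for genes higher with vasostatin-2 in 99.3% of rows with a mean count of at least 10.

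Estimated counts were rounded to whole numbers, filtered with filterByExpr, scaled by TMM (factors 0.985 to 1.01) and tested with edgeR 4.0.16 in R 4.3.3 by the quasi-likelihood test, with robust dispersions, treatment as the only term and Benjamini-Hochberg adjustment over 14557 genes. The biological coefficient of variation was 16.1%. Standard errors were derived from the F statistic. The prior count for log2 CPM was 2. Alternatives used DESeq2 1.42.0 and limma 3.58.1, and the edgeR code was tested on simulated counts. DESeq2 left 584 adjusted p-values undefined. Replicate libraries were not near-identical (log2 differences with an SD of at least 0.23), and each was treated as 1 sample. That difference cannot show whether the libraries come from separate animals.

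The members and lists were chosen with earlier results of these data known. The genes named were all 10 members, the 3 most abundant tested genes of each related list, any gene of those lists past the adjusted threshold, and the 5 genes most like Eln; others, Pdgfra of the marker lists among them, were chosen after their values were seen. The rule's 2 most abundant genes per marker list are given through the summed marker levels. Gene positions come from GENCODE M21 on the same build, GRCm38. The deposited table gives Eln a span of 120 kb, against 44.7 kb in GENCODE, and Lox 61.3 kb against 13.8 kb; whether reads from the added stretch were counted was not tested. Reads of overlapping or antisense genes cannot be told apart. Intervals cover the spread between these libraries.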

Additional observations from a re-analysis of the deposited data

How the results depend on the processing

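No elastic fibre gene was called under any alternative run. Over 170 recomputed log2 fold changes of the 10 genes, 152 kept their direction and 18 turned, and none crossed the threshold. Leaving out single libraries gave values from −0.12 to 0.66 for Eln, −0.24 to 0.19 for Fbn1, −0.074 to 0.11 for Fbln1, 0.070 to 0.39 for Fbln2, 0.17 to 0.49 for Fbln5, −0.19 to 0.075 for Efemp2, −0.0077 to 0.39 for Lox, −0.081 to 0.27 for Loxl1, −0.52 to 0.057 for Loxl2 and −0.047 to 0.26 for Mfap4. The low ends came without saline replicate 2 and the high ends without saline replicate 1 or 3, except for Fbln1, where they came without vasostatin-2 replicates 2 and 1. The log2 fold change of Fbn1 also turned with replicate number as a block (0.043), without both replicates 3 (0.029) and on log2(TPM + 1) with limma (0.037). The block left the set's median at 0.12, called 0 genes and changed no other call. No label says whether libraries with the same replicate number share a day or an animal. Same-numbered libraries had deviations correlated at −0.12, 0.025 and 0.027, and no library correlated best with its own number. With 3 libraries per group, such correlations cannot decide whether the libraries were paired. The median of the 10 genes ran from −0.072 to 0.20 without single libraries. Over all genes, counts of calls ran from 0 to 2 without single libraries, with 2 without saline replicate 2, and DESeq2 called 113, where it called 2 in the related lists. The cause was not tested. Scaling and filter choices moved the median of the 10 genes by less than 0.01. Depth at these genes was at least 1727 estimated counts in each library. The intervals for Eln and Loxl2 allow changes of more than 1.5-fold either way.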
